A study of Arabidopsis thaliana with 42 samples.

Results

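EXO (EXORDIUM, AT4G08950) and ARL (ARGOS-LIKE, AT2G44080) are genes of hormone-promoted organ growth, each measured by 1 probe set among the 22810 on the array. The probe sets were taken by gene symbol from the platform annotation, which names a single gene for 13513 of them, and both members were found. The genes were selected on their measured levels: earlier results of these data showed them to differ between lines, with all 14 groups in view. Their levels and differences are therefore given as a description with errors, and no p-value is attached to them.

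EXO encodes a secreted protein of the cell wall space that is induced by brassinosteroids, the steroid growth hormones of plants, and promotes leaf growth through cell expansion. ARL encodes a small membrane protein of the ARGOS family, is also induced by brassinosteroids and promotes the expansion of cells in growing organs. Overexpressed ARGOS family proteins lower the response of Arabidopsis to ethylene, an effect that depends on RTE1, a membrane protein that keeps the ethylene receptor ETR1 active. Ethylene itself generally restrains growth in light-grown seedlings, and its precursor ACC is made by the ACC synthase (ACS) enzymes that the study mutated.

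RNA came from seedlings of Arabidopsis thaliana, aged 10 days, kept at 25 C under a light period of 16 hours following 2 days of cold at 4 C. The 27 arrays of the single mutant set comprise the wild type Col and 8 lines, namely acs1A, acs4A, acs6E, acs9B and the pairs acs2B with acs2C and acs5C with acs5D, and the 15 arrays of the higher order set comprise other Col arrays and the lines penta, hexa, hepta and miR. Each group has 3 arrays that the titles call biological replicates, so p-values for other genes measure the spread between these samples. The labels name the lines but not their alleles, the genes combined in penta, hexa and hepta, or the target or promoter of miR, and all groups share the medium with sucrose and the growth conditions.

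The values are RMA expression levels on a log2 scale. The median level of an array was 6.77 to 6.83 for the single lines and their Col, and 6.24 to 6.31 for the higher order lines and theirs, so levels are compared within a set only. Foreign transcripts spiked into the samples differed between the Col and line arrays of the single set: of 45 such probe sets limma called 26 to 36 in each single line. For the bacterial thr transcripts Col ranged from 6.51 to 6.68, whereas line arrays ranged from 7.08 to 8.14. For the phage P1 cre transcripts Col ranged from 13.11 to 13.29 and line arrays from 12.55 to 12.91. A difference in array processing, which the labels do not describe, and a genotype difference therefore cannot be told apart where a single line is set against Col. Of the same 45, limma called 5 in miR and 0 in the other higher order lines, and the counts with unadjusted p under 0.05 were 15 for miR, 1 for penta, 0 for hexa and 0 for hepta. The part of array processing in the miR differences from Col was not tested. The bacterial bioC transcript split the single line arrays into 14 low ones, at 7.07 to 7.50, and 10 high ones, at 8.95 to 9.30. The Col arrays lay between these, at 8.22 to 8.51. Each single line was also set against the other lines of its own bioC level. The seedling label could be checked on few markers: the leaf gene PORB was 1 of 5 leaf markers with a named probe set, the root genes PYK10 and EXPA7 were 2 of 7, and none of the 4 flower and 4 seed markers had one.

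EXO differed from Col in both directions among the single lines, being higher in acs1A and lower in acs4A and acs2B. In the Col arrays its level was 10.99, 9.85 and 10.65, a mean of 10.50 ± 0.58 (SD, n = 3), the widest spread of any group. In acs1A it was 11.12, 11.62 and 11.06, a mean of 11.27 ± 0.31. All acs1A arrays lay above all Col arrays, and acs1A was the group with the highest EXO level of the set. The difference was 0.77 ± 0.25 (SE), or 1.71-fold, and 13.2% of all probe sets had acs1A arrays wholly above Col in the same way. Without Col replicate 2, the low Col array, the difference was 0.45.

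**Figure D1:**
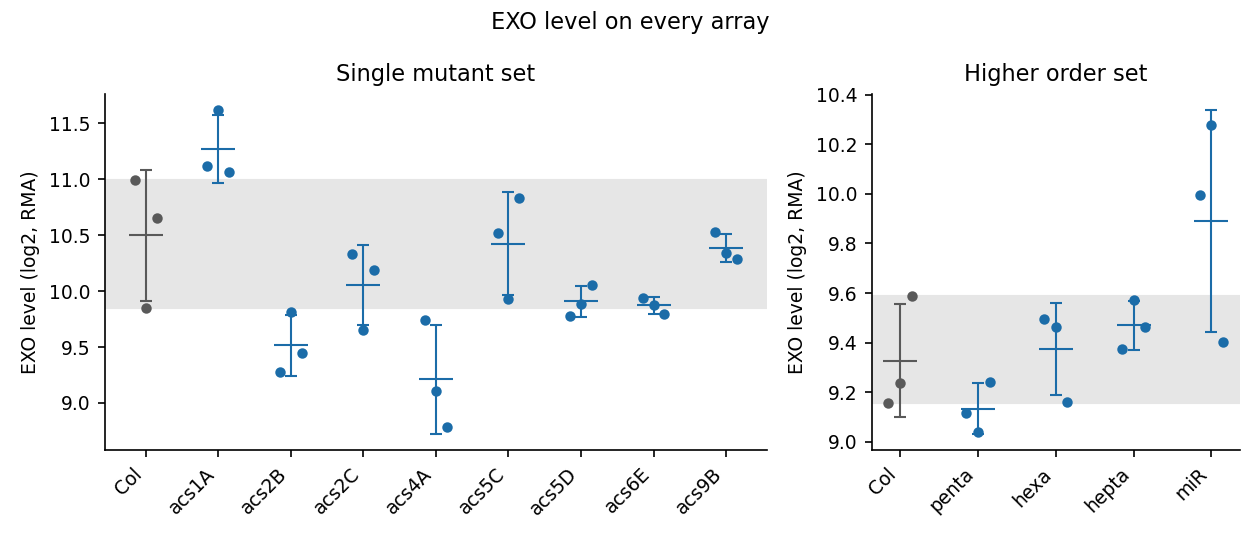
EXO level (log2, RMA) on every array of the single mutant set (left) and the higher order set (right), with the scales of the panels differing. Points are arrays, bars the mean and SD of 3 arrays, and the grey band spans the Col arrays of that set. The acs1A arrays (11.06 to 11.62) lie above the band and the acs4A arrays (8.78 to 9.74) below it.

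The lowest EXO levels were found in acs4A, at 9.74, 9.11 and 8.78 (mean 9.21 ± 0.49). Every acs4A array lay below every Col array, a difference of -1.28 ± 0.25, or 2.44-fold lower. In acs4A 14.0% of probe sets lay wholly below Col. Replicate 1 of acs4A deviated most from its group of all single-set arrays (mean absolute deviation 0.125 over all probe sets, against 0.0555 to 0.115 in the rest), and it also held the highest EXO level of the line. Without it the EXO difference was -1.55.

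EXO was also lower in acs2B, where its level was 9.28, 9.82 and 9.45 (mean 9.51 ± 0.28). The difference from Col was -0.98 ± 0.25. The acs2B arrays lay below the Col arrays by a narrow margin, with 9.82 as the highest acs2B and 9.85 as the lowest Col value, and 17.9% of probe sets lay wholly below Col in this line. Lines whose EXO arrays overlapped Col were acs2C (10.33, 9.65 and 10.18, a difference of -0.44 ± 0.25), acs5C (10.52, 9.93 and 10.83, -0.07 ± 0.25), acs5D (9.78, 9.89 and 10.05, -0.59 ± 0.25), acs6E (9.94, 9.88 and 9.80, -0.63 ± 0.25) and acs9B (10.52, 10.34 and 10.29, -0.11 ± 0.25). The mean was thus below Col in 7 of the 8 lines, with 2 lines free of overlap. That count rested on Col replicate 2: without it 6 lines lay wholly below Col (acs2B, acs2C, acs4A, acs5D, acs6E and acs9B). With fewer Col arrays any probe set is freer of overlap, and the share of all probe sets was not computed for that setting.

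From highest to lowest the EXO means ran acs1A, Col, acs5C, acs9B, acs2C, acs5D, acs6E, acs2B and acs4A. Only the step from acs1A to Col was free of overlap between neighbours, and the arrays of every later pair of neighbours overlapped. The span from acs1A to acs4A was 2.06 ± 0.25, or 4.16-fold. Within the groups the pooled SD of EXO was 0.354, larger than that of 99.3% of probe sets, and the SD of its 9 group means, 0.604, was larger than that of 99.5%.

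Because Col stood apart in the added transcripts, the comparison among lines is given beside that with Col. In acs1A EXO exceeded the mean of the other low-bioC lines by 1.50 ± 0.20, and all 3 of its arrays lay above all arrays of those lines, as did 1.15% of probe sets. In acs4A it was below the other lines by -1.07 ± 0.20, with overlapping arrays. The acs2B arrays of low bioC level (9.28 and 9.45) were below the other lines by -0.88 ± 0.24, and its 1 array of high level (9.82) differed from the high-bioC lines by -0.24 ± 0.33. The differences of acs1A, acs4A and acs2B had the same sign with and without Col as the reference. For acs1A and acs4A, the highest and lowest groups of the set, the sign against other lines could not have differed. The low-bioC references of acs4A and acs2B also include acs1A. The shared sign is therefore no separate support. For acs9B the sign changed: EXO was 0.52 ± 0.22 above the other high-bioC lines, all of whose arrays lay below it, as in 9.99% of probe sets. EXO in acs5C was 0.45 ± 0.20 above the other low-bioC lines, again opposite in sign to the comparison with Col, and the remaining lines differed from theirs by -0.16 to -0.012.

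ARL followed another order in the same plants. Its Col levels were 7.68, 7.17 and 7.91 (mean 7.59 ± 0.38). In acs5D ARL was at 8.52, 8.53 and 8.44 (mean 8.50 ± 0.05), above every other array of the single set. The acs5D difference from Col was 0.91 ± 0.21, or 1.88-fold, and 12.4% of probe sets had acs5D arrays wholly above Col. Against the other lines of high bioC level it was 0.80 ± 0.18 higher, again without overlap, as in 1.50% of probe sets.

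**Figure D2:**
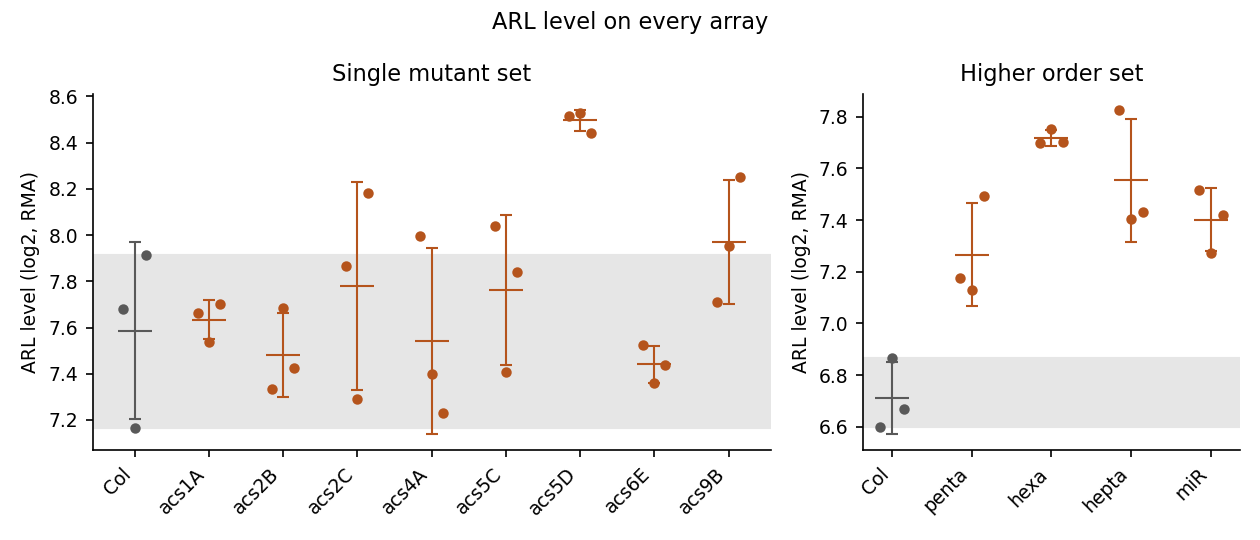
ARL level (log2, RMA) on every array, drawn as for EXO, with the scales of the panels differing. In the single set (left) the acs5D arrays (8.44 to 8.53) lie above the grey band of the Col arrays and the other lines reach into it, while in the higher order set (right) all line arrays (7.13 to 7.83) lie above the Col arrays (6.60 to 6.87).

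In the other 7 single lines the ARL arrays overlapped Col. The levels were 7.66, 7.54 and 7.70 in acs1A, 7.33, 7.68 and 7.43 in acs2B, and 7.86, 7.29 and 8.18 in acs2C. They were 8.00, 7.40 and 7.23 in acs4A, 8.04, 7.41 and 7.84 in acs5C, 7.52, 7.36 and 7.44 in acs6E, and 7.71, 7.95 and 8.25 in acs9B. The differences from Col ran from -0.15 ± 0.21 in acs6E to 0.38 ± 0.21 in acs9B, each within 2 standard errors. Without Col replicate 3 the acs9B arrays lay wholly above Col, and without Col replicate 2 the acs6E arrays lay wholly below. The shares of all probe sets in these settings were not computed. In acs1A and acs4A, the lines at the ends of the EXO range, the ARL means were 7.63 ± 0.08 and 7.54 ± 0.40, a difference of 0.09 ± 0.21.

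In order of their ARL means the single-set groups were acs5D, acs9B, acs2C, acs5C, acs1A, Col, acs4A, acs2B and acs6E. Only acs5D was free of overlap with its neighbour, acs9B, at a step of 0.53. The pooled within-group SD of ARL, 0.287, exceeded that of 98.7% of probe sets. In acs6E ARL was -0.61 ± 0.18 below the other lines of high bioC level, although against Col it differed by only -0.15. Its arrays lay below all of theirs, as in 7.18% of probe sets. That reference gave equal weight to acs5D (mean 8.50), the highest line, acs9B (7.97) and the 1 high-bioC array of acs2B (7.68).

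Lines whose names share an ACS number were also set against each other. EXO was lower in the low-bioC arrays of acs2B than in acs2C by -0.69 ± 0.28, without overlap, as in 23.2% of probe sets. The high-bioC acs2B array (9.82) lay above the lowest acs2C array (9.65), so acs2B as a whole overlapped acs2C in EXO. ARL differed between the low-bioC arrays of acs2B and acs2C by -0.40 ± 0.23 with overlap. Between acs5C and acs5D, EXO differed by 0.52 ± 0.25 with overlapping arrays, and ARL was lower in acs5C by -0.73 ± 0.21, without overlap, as in 12.3% of probe sets. The arrays of acs5C were all at the low and those of acs5D all at the high bioC level, so that level and line cannot be told apart there. Within the high level, acs6E was below acs9B in EXO by -0.51 ± 0.25 and in ARL by -0.53 ± 0.21, both without overlap, as in 23.2% of probe sets.

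In the higher order set ARL was above Col in each of the 4 lines, and EXO overlapped Col in each. ARL was at 6.60, 6.87 and 6.67 in Col (mean 6.71 ± 0.14), at 7.17, 7.13 and 7.49 in penta (7.27 ± 0.20) and at 7.70, 7.75 and 7.70 in hexa (7.72 ± 0.03). It was at 7.83, 7.40 and 7.43 in hepta (7.55 ± 0.24) and at 7.51, 7.27 and 7.42 in miR (7.40 ± 0.12). No line array overlapped a Col array.

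The ARL differences from Col were 0.55 ± 0.12 in penta, 1.01 ± 0.12 in hexa (2.01-fold), 0.84 ± 0.12 in hepta (1.79-fold) and 0.69 ± 0.12 in miR. Arrays wholly above Col were found for 10.9% of probe sets in penta, 15.5% in hexa, 15.7% in hepta and 19.2% in miR, and for 2.98% in all 4 lines at once. A difference of at least this size in either direction was shown by 1.1%, 0.620%, 1.41% and 3.45% of probe sets in the same order of lines. The 4 lines share their Col arrays, so the 4 differences are not independent of each other. With any 1 array of the line or of Col left out, the differences were 0.44 to 1.08 over the 4 lines.

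Among the higher order lines ARL was highest in hexa and lowest in penta, and only Col stood free of overlap with its neighbour in the order of means. Hexa exceeded penta by 0.45 ± 0.12, without overlap, as in 14.9% of probe sets, and miR lay below hexa by -0.32 ± 0.12, also without overlap, as in 10.9%. Hepta differed from hexa by -0.16 ± 0.12 and from penta by 0.29 ± 0.12, and miR from hepta by -0.15 ± 0.12 and from penta by 0.14 ± 0.12, all with overlapping arrays.

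EXO in the higher order set was at 9.16, 9.24 and 9.59 in Col (mean 9.33 ± 0.23), at 9.12, 9.04 and 9.24 in penta (9.13 ± 0.10) and at 9.50, 9.46 and 9.16 in hexa (9.37 ± 0.18). It was at 9.37, 9.57 and 9.46 in hepta (9.47 ± 0.10) and at 10.00, 10.28 and 9.40 in miR (9.89 ± 0.45). The differences from Col were -0.19 ± 0.16 in penta, 0.05 ± 0.16 in hexa and 0.14 ± 0.16 in hepta. The largest difference was that of miR, 0.57 ± 0.16, where replicates 1 and 2 lay above Col while replicate 3 lay among the Col arrays. Without replicate 2 the miR difference was 0.37 and without replicate 3 it was 0.81. Without Col replicate 3 the hepta and miR arrays lay wholly above Col, a setting for which the share of all probe sets was not computed. Relative to penta, EXO was higher in miR by 0.76 ± 0.16 and in hepta by 0.34 ± 0.16, both without overlap, as in 17.4% and 11.1% of probe sets. EXO in miR differed from hepta by 0.42 ± 0.16 and from hexa by 0.52 ± 0.16, with overlapping arrays. EXO in hexa was above penta by 0.24 ± 0.16 and in hepta above hexa by 0.10 ± 0.16, again with overlap.

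**Figure D3:**
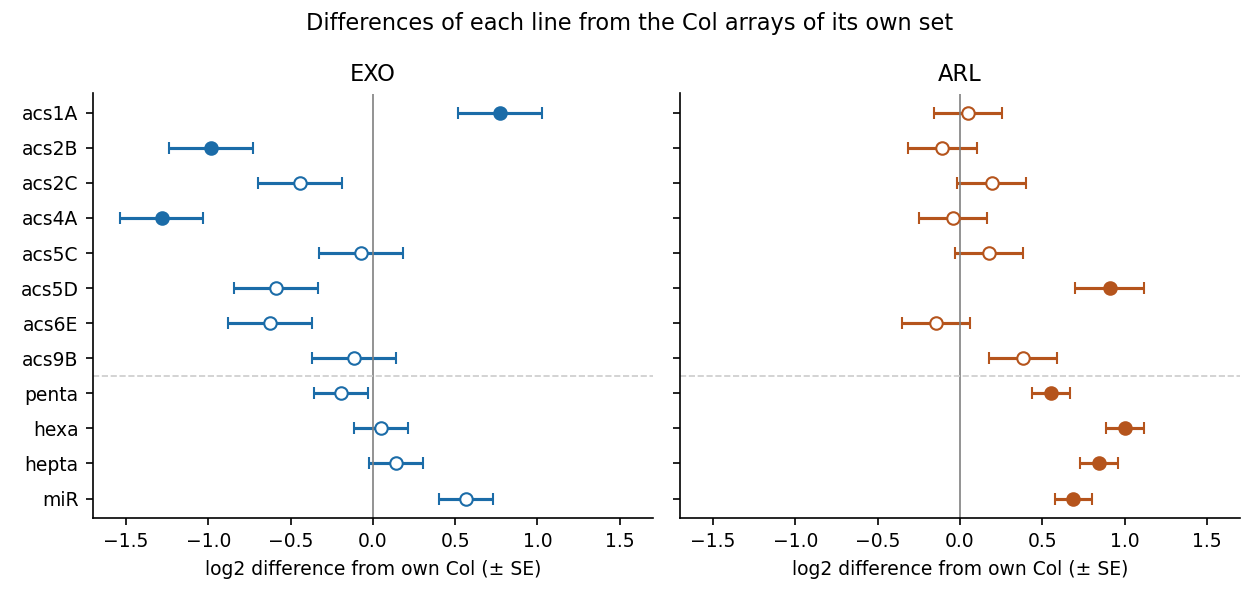
Log2 difference of each line from the Col arrays of its own set for EXO (left) and ARL (right), with limma standard errors. Filled points mark lines whose 3 arrays all lie beyond the 3 Col arrays, and the dashed line parts the single from the higher order lines. EXO spans -1.28 in acs4A to 0.77 in acs1A, and ARL is at 0.55 to 1.01 in the 4 higher order lines and at 0.91 in acs5D.

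Leaf and root markers moved beside these values to unequal degrees. PORB, an enzyme of chlorophyll synthesis in green tissue, lay at 8.72 to 8.94 in the higher order Col arrays and at 9.10 to 10.16 in the lines, above Col on every array, as ARL was. PYK10, an abundant root beta-glucosidase, lay at 12.91 to 13.11 in Col and 13.00 to 13.27 in the lines, and the root hair expansin EXPA7 at 6.11 to 6.33 in Col and 5.77 to 6.51 in the lines. In the single set PORB was at 11.11 to 11.53 in Col and 11.03 to 11.51 in acs4A, where EXO was lowest. It fell in acs1A, where EXO was highest, to 10.45 to 10.60 (-0.76 ± 0.13, limma adjusted p = 0.00018), and in acs5D, where ARL was highest, to 10.77 to 10.96 (-0.44 ± 0.13, limma adjusted p = 0.021). PORB also fell in acs6E (9.03 to 9.33), acs2B (9.66 to 9.98) and acs5C (10.34 to 10.68), without overlap with Col. Of all probe sets limma called 21.4% in acs1A, 17.6% in acs5D, 28.8% in acs6E, 22.7% in acs2B and 19.2% in acs5C. Array processing and genotype cannot be told apart in these comparisons with Col. PYK10 lay wholly above Col in acs5D (13.53 to 13.56 against 13.34 to 13.51, limma adjusted p = 0.32). EXPA7 did so in acs6E (6.912 to 7.160 against 6.329 to 6.906, limma adjusted p = 0.062). In the remaining single lines both root markers overlapped Col, and limma called neither in any single line. The part of tissue makeup in the EXO and ARL values was not tested. In bulk seedling RNA, fewer cells of a type and less RNA per cell cannot be told apart.

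EXO and ARL levels were weakly correlated over arrays, and in the single set their deviations among replicates were correlated more. Over the levels of the 27 single-set arrays Pearson's r was 0.25 (Spearman's rho 0.39), and 0.38 without the 2 arrays farthest from the EXO median. The deviations of the arrays from their group means gave r = 0.68 (rho 0.63), and 0.56 without the 2 farthest. Replicate 2 was the lowest array for both genes in Col, acs2C and acs5C, and replicate 1 the highest for both in acs4A. Without acs4A replicate 1 the r of the deviations was 0.63. In the 15 higher order arrays r was 0.14 for levels (rho 0.21) and -0.13 for deviations (rho -0.14). These values describe arrays that share a normalization and, within a group, a genotype, and no p-value was computed for them.

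**Figure D4:**
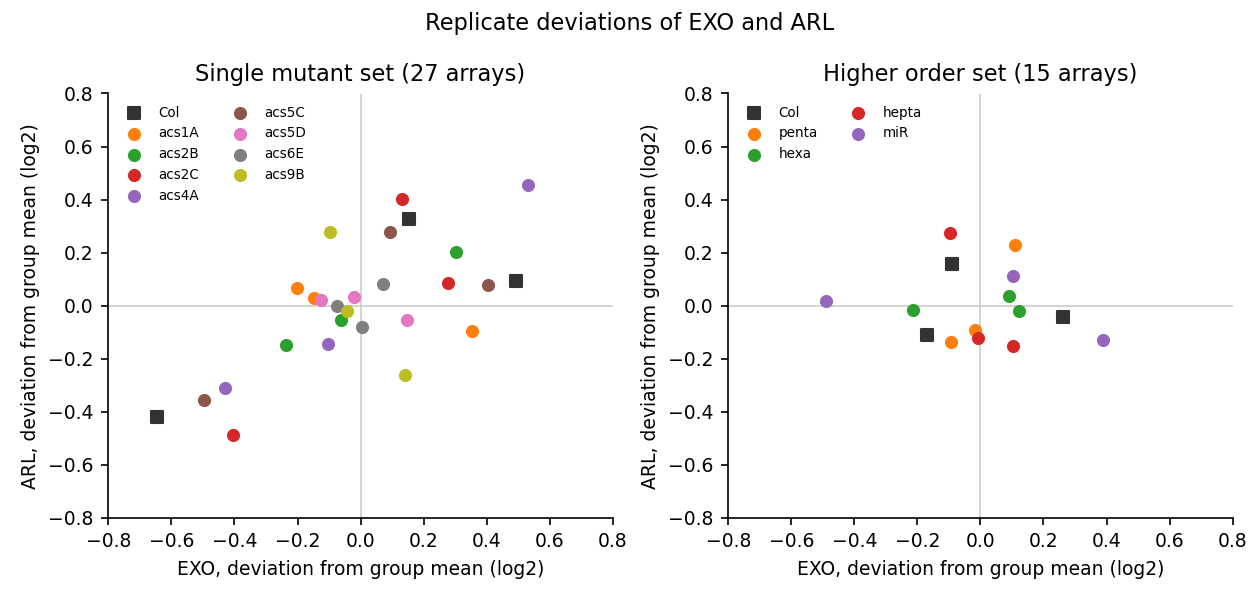
Deviation of each array from its group mean (log2) for EXO (horizontal) and ARL (vertical) in the single set (left, 27 arrays) and the higher order set (right, 15 arrays). Col arrays are squares. The single-set points run from lower left to upper right (r = 0.68), and the higher order points do not (r = -0.13).

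The genes whose levels followed EXO most closely across the 27 single-set arrays were EXGT-A3 (r = 0.92, rho 0.89), which encodes a xyloglucan-modifying enzyme of the cell wall, AT2G47440 (0.90), AT1G74450 (0.90), AT2G41330 (0.89) and IAA18 (0.88), a repressor of the auxin response. Those closest to ARL there were AT4G15700 (0.81), AT5G62280 (0.80), AT1G24530 (0.79), WRKY22 (0.77), a transcription factor of defence responses, and AT1G21830 (0.75). In the 15 higher order arrays the closest to EXO were AT4G37240 (0.91), AT1G20800, AT2G31810 and AT1G32570 (0.87, 0.87 and 0.86) and the expansin-like gene EXLA1 (0.86). The closest to ARL were LCB2 (0.95), which encodes a subunit of the first enzyme of sphingolipid synthesis, AT1G01500 (0.93), the mitochondrial gene cox2 (0.91), AT3G52500 (0.90) and AT1G74680 (0.90). No gene stood in the top 5 of a member in both sets. Among these genes AT4G15700, AT1G20800 and AT1G32570 were dim, with mean levels of 4.26, 4.22 and 4.29. The deviations from group means of EXGT-A3 also followed those of EXO (r = 0.83), whereas those of cox2 followed ARL less (0.54).

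Of 90 other entries in 7 lists of hormone and organ growth genes, 10 had a named probe set. No other member of the EXORDIUM family (1 of 8 with a named probe set, EXO itself) and no other ARGOS gene was among them. No gene of brassinosteroid synthesis was either. Of the 22746 probe sets tested, 8730 had no gene name here and 503 named several genes. A list gene without a named probe set may therefore still be on the array, but its level was not read. The 10 were RTE1, the brassinosteroid receptor gene BRL1, the expansin gene EXPA8, the auxin genes IAA29, GH3.3, WES1 (GH3.5), LBD16 and LBD29, and the organ growth regulators JAG and SPT. Against Col, limma (Benjamini-Hochberg adjusted p below 0.05 over 22746 probe sets) called 5 of them in acs6E, 4 in acs9B, 2 in acs1A and 1 in acs4A, against 28.8%, 25.6%, 21.4% and 20.3% of all probe sets. It called 5 in acs2B, 3 in acs2C, 2 in acs5C and 1 in acs5D, against 22.7%, 26.6%, 19.2% and 17.6%. Among the higher order lines 1 was called in penta, 2 in hexa, 4 in hepta and 3 in miR, and all 10 calls were higher. The shares of all probe sets called higher in these lines were 2.08%, 4.44%, 6.96% and 12.3%. WES1 gave 4 of the 10 calls and GH3.3 gave 3. The lists were chosen with earlier results of these data known, so the counts beside the shares are a description and not a test. Of the 23 single-set calls 5 were higher and 18 lower, and the count fell to 13 without Col replicate 2.

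RTE1, the partner of ARGOS proteins in the ethylene response, was at 8.07, 8.14 and 7.99 in the single-set Col arrays. It fell in acs6E, to 7.75, 7.70 and 7.69 (-0.35 ± 0.07, limma adjusted p = 0.00065), and in acs2B, to 7.72, 7.85 and 7.72 (-0.30 ± 0.07, limma adjusted p = 0.0035). RTE1 in acs6E was also below the other high-bioC lines, by -0.28 ± 0.06 (limma adjusted p = 0.0034), where 14.4% of all probe sets were called. In the low-bioC arrays of acs2B it was below the other low-bioC lines by -0.28 ± 0.07 (limma adjusted p = 0.0083), where 11.8% were called. The 1 high-bioC array of acs2B differed from the other high-bioC lines by -0.098 ± 0.09 (limma adjusted p = 0.78), where 0.273% were called. In acs9B RTE1 was above the other high-bioC lines by 0.31 ± 0.06 (limma adjusted p = 0.00084), where 24.5% were called. In acs5D, where ARL was highest, RTE1 differed from Col by -0.09 ± 0.07 (limma adjusted p = 0.44). RTE1 rose in miR, from 7.40, 7.22 and 7.43 in Col to 7.68, 7.74 and 7.74 (0.37 ± 0.08, limma adjusted p = 0.0041). Its differences in penta, hexa and hepta, 0.24, 0.15 and 0.24, did not pass (limma adjusted p = 0.15, 0.33 and 0.076).

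WES1 and GH3.3 encode enzymes that conjugate the auxin IAA to amino acids and are induced by auxin. WES1 rose in all 4 higher order lines, as the ARL levels were higher in all 4: by 0.52 ± 0.08 in penta (limma adjusted p = 0.0021), 0.41 ± 0.08 in hexa (0.0045), 0.72 ± 0.08 in hepta (1.6e-05) and 0.64 ± 0.08 in miR (3.6e-05). GH3.3 rose by 1.24 ± 0.10 in miR (limma adjusted p = 7.3e-08) and 0.72 ± 0.10 in hexa (limma adjusted p = 0.00010), and differed by 0.03 in penta (limma adjusted p = 0.93). In acs5D, the single line with the highest ARL, WES1 and GH3.3 differed from Col by 0.08 and 0.19 (limma adjusted p = 0.75 and 0.39). WES1 fell in acs6E by -0.67 ± 0.14 (limma adjusted p = 0.0010).

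IAA29, an auxin-induced repressor of the auxin response, moved in opposite directions in acs9B and acs6E, by 0.91 ± 0.21 (limma adjusted p = 0.0023) and -0.87 ± 0.21 (limma adjusted p = 0.0026). Set directly against acs9B, acs6E was at -1.77 ± 0.21 (limma adjusted p = 1.9e-06), and 29.5% of probe sets were called between these lines. IAA29 also rose in hepta by 0.79 ± 0.15 (limma adjusted p = 0.0018). In acs1A and acs4A, the lines at the ends of the EXO range, IAA29 differed from Col by -0.51 ± 0.21 and 0.21 ± 0.21 and was not called (limma adjusted p = 0.083 and 0.52). The lateral root regulators LBD16 and LBD29 did not pass the threshold in any of the 12 lines with all arrays in the fit (lowest limma adjusted p 0.34 and 0.15), although without Col replicate 3 LBD16 passed in acs1A, acs5C and acs6E and LBD29 in acs5C. Both were dim, with Col means of 4.91 and 4.46 in the single set and 4.32 and 4.07 in the higher order set.

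**Figure D5:**
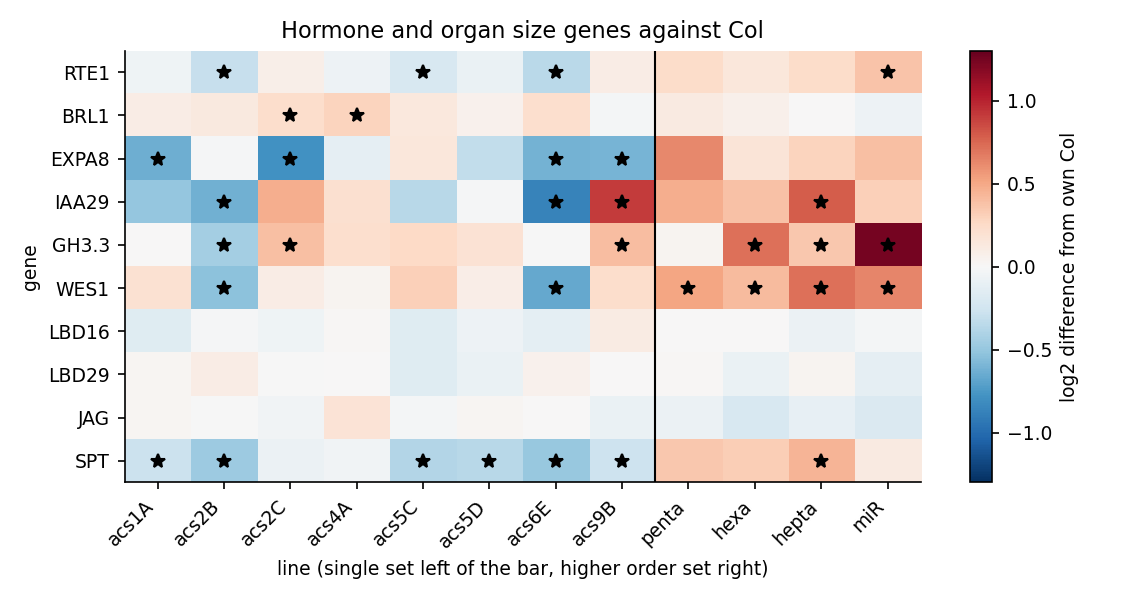
Log2 difference from Col (colour) of the 10 genes of the hormone and organ growth lists that had a named probe set. The 8 single lines are left of the bar and the 4 higher order lines right. Stars mark limma adjusted p below 0.05. WES1 is starred in all 4 higher order lines, and SPT in 6 of the 8 single lines.

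SPT, a transcription factor that restrains the growth of cotyledons and leaves, was lower than Col in 6 of 8 single lines. Its differences were -0.50 ± 0.10 in acs6E (limma adjusted p = 0.00038), -0.47 ± 0.10 in acs2B (0.0010), -0.38 ± 0.10 in acs5C (0.0066) and -0.36 ± 0.10 in acs5D (0.011), with smaller calls in acs1A and acs9B (-0.28 and -0.27). The calls in acs1A and acs9B were lost without Col replicate 2 and without Col replicate 3. Against the other lines at its bioC level SPT did not pass in any line (lowest limma adjusted p 0.072). It did pass between the low-bioC arrays of acs2B and acs2C, lower in acs2B by -0.38 ± 0.11 (limma adjusted p = 0.019), where 17.9% of probe sets were called. JAG, a regulator of lateral organ growth, had a lowest limma adjusted p of 0.18 over the 12 lines, and passed in acs4A without Col replicate 2. It was also dim, with Col means of 4.22 in the single set and 4.21 in the higher order set. EXPA8, whose product loosens cell walls, was lower in acs2C by -0.79 ± 0.21 (limma adjusted p = 0.0064) and in acs1A, acs6E and acs9B by -0.61 to -0.63, and these 4 calls were lost without Col replicate 2 (limma adjusted p of 0.056 in acs2C and 0.17 to 0.19 in the others). With the other low-bioC lines as the reference in place of Col, EXPA8 was still lower in acs2C, by -0.62 ± 0.17 (limma adjusted p = 0.021), where 11.0% of probe sets were called. In acs1A, the line with the highest EXO level, EXPA8 was thus at 9.64 against 10.27 in Col, and against the other low-bioC lines it did not pass (-0.42 ± 0.17, limma adjusted p = 0.19).

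The remaining calls against Col were GH3.3 in acs2B (-0.44), acs2C (0.39), acs9B (0.41) and hepta (0.35), WES1 (-0.53) and IAA29 (-0.62) in acs2B, RTE1 in acs5C (-0.21), SPT in hepta (0.44), and BRL1 in acs2C (0.23) and acs4A (0.29). Each of these was lost in at least 1 alternative fit. BRL1, a relative of the brassinosteroid receptor BRI1, was thus called higher in acs4A, the line with the lowest EXO level, but not without acs4A replicate 1 (limma adjusted p = 0.10) or Col replicate 2 (0.093). Its signal was dim, at 4.19 to 4.48 in Col and 4.45 to 4.78 in acs4A. The filter on dim probe sets left BRL1 out, so its calls could not be checked there. Over all 33 calls, 17 held in every alternative run and 16 were lost in at least 1, of which 13 were lost without Col replicate 2 or its counterpart in the higher order set and 11 without replicate 3.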

How the data were processed

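The 42 arrays were read as deposited: per the submitters' processing notes the authors used RMA, and the deposited values are log2 levels per probe set. Neither the RMA version nor a genome build for the annotation is given in the sources used here. The single and higher order arrays were treated as normalized apart, because their array medians differ. Symbols came from the platform annotation, and locus codes from the RefSeq gene table through the gene ID.

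Differences come from limma 3.58.1 (R 4.3.3), run over 22746 probe sets (64 controls left out), with all groups of a set sharing the spread and Benjamini-Hochberg adjustment. The members and gene lists were chosen with earlier results of these data known. The text names EXO and ARL in every group, list genes past the adjusted p threshold of 0.05 in a comparison described, the 5 genes most like each member by Pearson's r in each set, and control transcripts that moved with a comparison. A list gene that did not pass is given with its value where a member is extreme, chosen after its values were seen.

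On simulated data with 200 changed probe sets of 22746, the fit of acs1A against Col recovered 83% of log2 changes of 0.5 and 98% of changes of 1. For hexa against Col it recovered 79% and 97%. False calls numbered 10 and 13. The simulated arrays had independent normal noise and no other difference between groups, unlike the real arrays. Recovery was not measured for EXO or ARL, whose spread exceeds that of most probe sets. With 3 arrays in a group, their number limits precision. Replicate numbers were not used to pair the arrays in the main fit. Alternatives were a second quantile normalization, a filter on dim probe sets, fits on the 2 groups alone, a trended robust fit, a replicate block and leaving out each array. Promoter motifs were not searched, and sequences are not used here.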

Additional observations from a re-analysis of the deposited data

Results flagged for a closer look

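EXO was higher than Col on every array of acs1A and lower on every array of acs2B and acs4A. Line by line, 13.2%, 17.9% and 14.0% of probe sets lay beyond Col in these ways. The differences from Col stood 1.75 apart for acs1A and acs2B and 2.06 apart for acs1A and acs4A, on the log2 scale.

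Genes of the auxin list also had all arrays of one line above Col and all arrays of another below. The share of all probe sets with such a pair of lines was not computed, for EXO or for these genes. All these lines were set against the single-set Col arrays, where array processing and genotype cannot be told apart. For GH3.3, acs5D and acs2B stood 0.64 apart. For WES1, acs5C stood 0.84 above acs2B and 0.98 above acs6E. For IAA29, acs2C stood 0.97 above acs1A, 1.09 above acs2B, 0.83 above acs5C and 1.33 above acs6E. IAA29 in acs9B stood 1.41 above acs1A, 1.53 above acs2B, 1.27 above acs5C and 1.77 above acs6E. A direct comparison of the lines was tested for IAA29 in acs6E against acs9B (-1.77 ± 0.21, limma adjusted p = 1.9e-06). It was also tested in the low-bioC arrays of acs2B against acs2C (-1.14 ± 0.23, limma adjusted p = 0.0019). The other differences were not tested. Groups of 3 arrays are too small for a search for outlying arrays.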

How the results depend on the processing

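Of the alternatives tried on the main values and counts, 722 stayed within the limits set and 24 moved. Some of the 722 could not move. A replicate block leaves the EXO and ARL differences from Col unchanged, as each group holds every replicate number. Calling every probe set of a gene separately repeated the main count. For EXO and ARL differences the limit was the pooled within-group SD of the gene (0.354 and 0.287 in the single set), a wide one. For counts it was a fixed ratio to the main count. A change of direction was counted only where the arrays compared did not overlap, and none was found. Sign changes of overlapping groups, such as EXO in acs9B and acs5C, could not count as one. With lines that share a bioC level as the reference in place of Col, EXO differed by 1.50 in acs1A, 0.52 in acs9B, 0.45 in acs5C, -0.012 in acs2C, -0.12 in acs5D and -0.16 in acs6E, and ARL by -0.61 in acs6E and 0.10 in acs9B. The cause was not tested. Leaving out each array in turn gave 0.45 to 1.02 for EXO in acs1A, -1.31 to -0.74 in acs2B and -1.61 to -1.04 in acs4A, and 0.70 to 1.07 for ARL in acs5D.

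Leaving out each Col array in turn (chosen after seeing the data), 2 to 6 single lines lay wholly below Col for EXO and 0 to 1 for ARL, and 1 to 2 lay wholly above for ARL. In the higher order set 0 to 2 lines lay wholly above Col for EXO. Overlap is rarer for any probe set with fewer Col arrays, and no share of all probe sets was computed beside these counts. Calls of list genes ranged from 13 to 27 in the single set (23 with all arrays) and from 8 to 11 in the higher order set (10 with all arrays).

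Of the 5 genes most like EXO in the single set, 2 were shared with the top 5 by Spearman's rho, 3 with those without Col and 0 with those by deviations from group means. In the higher order set these counts were 1, 2 and 0. For ARL, 3 were shared by rho and 1 by deviations in the single set, and 3, 2 and 0 in the higher order set.

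In their deviations from group means, same-numbered arrays had correlations of -0.26 to 0.33 in the single set (median 0.009). In the higher order set these were -0.18 to 0.21 (median 0.031). Of the single-set arrays 10 of 27 correlated best with their own number, and of the higher order arrays 9 of 15. Whether the numbers mark pairs was not tested. With a replicate block, 22 list genes were called in the single set and 10 in the higher order set.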

Other observations

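Between lines, without Col, 6 of the 10 list genes passed the limma threshold in the low-bioC arrays of acs2B against acs2C. GH3.3, RTE1, WES1, IAA29 and SPT were lower in acs2B, by -0.84, -0.42, -0.69, -1.14 and -0.38, and EXPA8 was higher, by 0.72. EXO and ARL differed there by -0.69 and -0.40.

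In acs9B, 4 list genes passed against the other high-bioC lines: RTE1, GH3.3, IAA29 and WES1 were higher, by 0.31, 0.49, 1.38 and 0.56. In acs6E, 3 passed, with RTE1, IAA29 and WES1 lower, by -0.28, -0.99 and -0.64. EXO stood at 0.52 in acs9B and -0.16 in acs6E against the same reference, and ARL at 0.10 and -0.61.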
